A study of Mus musculus with 8 samples.

Results

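Cluster #e5 was 1 of the 4 clusters of mouse liver endothelium that the study annotated as sinusoidal. Its members were the endothelial cells with the number 5 in the multilevel clustering of the deposited cell table. They made up 151 of the 1106 endothelial cells (13.7%) in a series of 3491 cells, and all 151 carried the annotation of sinusoidal endothelial cells. The male pool held 120 of them and the female pool 31. The clusters were made from the transcriptomes of these same cells, through principal components of the most variable genes, so a gene's level in #e5 is not independent of the choice of its cells. All levels and ratios below are therefore descriptions, and none carries a test.

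The cells came from dissociated livers of adult male and female mice of up to a year of age. The mice were of the *C57BL6/J* strain or carried heterozygous fluorescent reporters (*Pdgfrb* GFP, *Pdgfra* H2bGFP, *Cspg4* dsRED, *Acta2* GFP, *Cldn5* GFP or combinations), and no group was treated. Endothelial cells were sorted on antibodies to CD31 or VE-cadherin or on the *Cldn5* GFP signal, so the numbers of cells per cluster reflect the sort. The series lists the male and the female endothelial cells as separate samples, here called pools, and each pool was taken as 1 replicate.

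No label names the mouse of a cell, and most plate names are a number that does not give the sort. Those of 4 plates with #e5 cells carry more, EC on plates with 4 and 2 #e5 cells, Acta2 on a plate with 4 and Rb on a plate with 1. Each plate held cells of 1 sex. Sex, mice and plates can therefore not be told apart between the pools. No cell name occurred in both pools (0 shared). The clusters set against #e5 were the sinusoidal #e3 (230 male and 6 female cells), #e8 (35 and 120) and #e6 (34 and 78, annotated as the last sinusoid before the central vein). They also included #e2 of the portal vein (68 and 60) and the central vein clusters #e1 (88 and 64) and #e7 (71 and 79). The lymphatic cluster #e4 (9 and 13) is given for its levels only.

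Sinusoids are the wide, fenestrated capillaries that carry blood from the portal tract along the hepatocyte plates to the central vein. Their endothelium clears waste macromolecules from blood through scavenger and lectin receptors and breaks them down in lysosomes. It is also zonated: cells near the portal tract, in the middle of the lobule and near the central vein are known to express different receptors and signals. Periportal endothelium is known for Notch ligands such as *Dll4*, and pericentral endothelium for the Wnt ligands and R-spondin that set the metabolic program of nearby hepatocytes.

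Levels (CPM) are counts of a gene per 1000000 gene counts, summed over the cells of a cluster and pool. A ratio is the log2 of the #e5 level over the mean level of the comparator clusters of the same pool, each with 0.5 CPM added. Pairs of values are given as male and female pool. A gene is called higher or lower only where it differed at least 2-fold in the same direction in both pools, among 11355 genes with a mean of at least 5 CPM over 14 cluster sums. The sums of #e5 held 24026421 and 4364042 counts, and its cells held 48812 to 685870 counts each (median 153017). In a sum of cells, fewer cells that express a gene and less RNA per cell cannot be told apart, so shares of cells are given for the genes that the description turns on.

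The 3 markers given for the cluster were present in it. *Lyve1* encodes a hyaluronan receptor first known from lymphatic vessels, *Stab2* encodes stabilin-2, a scavenger receptor that takes up hyaluronan, and *Mrc1* encodes the mannose receptor. At least 1 read of all 3 was counted in 107 of 151 cells (70.9%), of 2 of them in 43 cells and of 1 in 1 cell. *Stab2* stood at 3367 and 3360 CPM and had a read in 150 of 151 cells. *Mrc1* stood at 2048 and 1582 CPM. Both were near the level of #e3 and #e8 and above #e6: *Stab2* was at 3210 and 2806 CPM in #e3 and at 4548 and 4317 CPM in #e8, and at 611.0 and 1443 CPM in #e6, and *Mrc1* was at 2223 and 2359 CPM in #e3 and at 698.0 and 1373 CPM in #e6. The pan-endothelial list of 8 genes held none that was higher or lower in either comparison.

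*Lyve1* (GRCm38.p6, chromosome 7, 110850607 to 110862953) did not set #e5 apart from #e3 and #e8 as its working name would have it. Its level was 699.2 and 454.4 CPM in #e5, 499.7 and 324.7 CPM in #e3, and 357.1 and 278.6 CPM in #e8. #e5 was highest in both pools, at 1.40 times the #e3 level in each pool and 1.96 and 1.63 times the #e8 level. The last sinusoid #e6 was at 19.9 and 2.32 CPM, #e1 at 1.61 and 1.25 CPM, #e7 at 2.80 and 2.32 CPM and the portal vein #e2 at 264.2 and 120.5 CPM. The lymphatic cluster #e4 was above #e5, with 1632 and 1529 CPM.

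Cell by cell, *Lyve1* was uneven within #e5. The middle cell had 19.1 CPM, the upper quartile was 1061 CPM and the highest cell reached 10617 CPM. Cells with at least 100 CPM made up 61 of 151 in #e5 (40.4%), 120 of 236 in #e3 (50.8%) and 59 of 155 in #e8 (38.1%). Within pools #e5 was below #e8, at 42.5% against 51.4% in male and 32.3% against 34.2% in female cells. Cells at 100 CPM made up 1 of 112 in #e6 and 19 of 128 in #e2. Any read of *Lyve1* was found in 71.5% of #e5 cells (exact 95% binomial interval 63.6 to 78.6%), but also in 35.5% of #e1 cells, where the level was near 0, so single reads say little. These intervals and the limits for a share of 0 cover counting error only.

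Of the scavenger receptors, *Msr1* marked #e5 among the sinusoidal clusters more clearly than *Lyve1*. *Msr1* encodes the class A macrophage scavenger receptor and lies on chromosome 8 of GRCm38.p6 (39543232 to 39642750). It stood at 651.8 and 599.2 CPM in #e5, against 195.6 and 266.8 CPM in #e3 and 267.3 and 175.0 CPM in #e8. #e6 was at 1.81 and 1.61 CPM, while the portal vein #e2 was at 504.6 and 830.6 CPM. The ratio to #e3, #e6 and #e8 was 2.07 and 2.02 (mean 2.04 ± 0.04, SD, n = 2 pools), and #e5 was above each of the 3 in both pools. Cells with at least 100 CPM were 94 of 151 in #e5 (62.3%), 75 of 236 in #e3 (31.8%), 50 of 155 in #e8 (32.3%) and 79 of 128 in #e2 (61.7%). In #e6 there were 0 of 112, which allows a share of up to 2.68%.

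**Figure D1:**
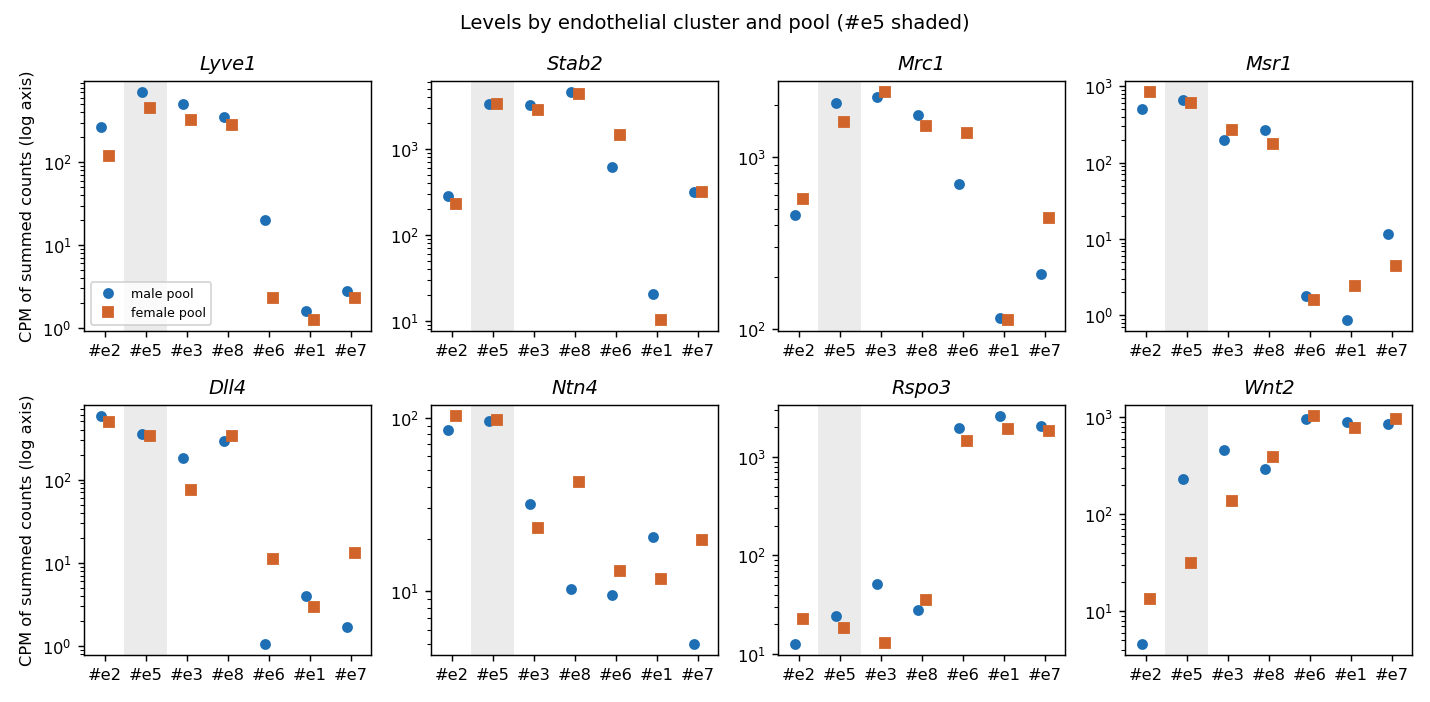
Level of 8 genes in 7 endothelial clusters, in CPM of summed counts on a log axis, with circles for the male and squares for the female pool and #e5 shaded. The sinusoidal clusters are drawn between the portal vein (#e2) and the central vein (#e1, #e7) in a chosen order. The place of #e5 next to #e2 is not a measured position. *Lyve1* is highest in #e5 but close to #e3 and #e8, *Msr1* and *Ntn4* in #e5 sit at the #e2 level, and *Rspo3* in #e5 is near the level of #e2, #e3 and #e8.

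High *Lyve1* and high *Msr1* were in part found in different cells of #e5. At 100 CPM or more, 37 cells had both, 24 had *Lyve1* without *Msr1*, 57 had *Msr1* without *Lyve1* and 33 had neither. With *Dll4* as the partner of *Msr1*, 48 cells had both, 46 had *Msr1* without *Dll4*, 12 had *Dll4* without *Msr1* and 45 had neither. Single cells are sampled unevenly by Smart-seq2, and cells of 1 plate share their source, so these are counts only.

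Compared with #e3, #e6 and #e8, 302 genes were higher in #e5 (2.66% of those considered) and 848 were lower (7.47%). The median ratio over all genes was -0.03 and -0.24, and 745 genes passed 2-fold in opposite directions in the pools. Among genes with a read in at least 50% of the cells of the higher side in both pools, exactly 10 were higher: *Msr1*, *Cmah*, *Bod1l*, *Psmc4*, *Itga9*, *Lyve1*, *Dll4*, *Shank3*, *Tmf1* and *Capns1*. *Cmah*, an enzyme of sialic acid synthesis, was at 53.4 and 56.1 CPM in #e5 against a mean of 19.8 and 22.9 CPM (ratios 1.41 and 1.27). A *Cmah* read was found in 50.8% and 58.1% of #e5 cells, but in 68.3% and 66.7% of #e3 cells. The shares were 47.1% and 41.0% in #e6 and 42.9% and 49.2% in #e8. *Itga9*, an integrin subunit (chromosome 9, 118606709 to 118901003), was at 649.1 and 637.5 CPM, against 471.3 and 315.6 CPM in #e3, 328.8 and 403.0 CPM in #e8 and 65.2 and 122.3 CPM in #e6. Its share of cells at 100 CPM was 61.7% and 71.0% in #e5, 64.8% and 66.7% in #e3, and 37.1% and 69.2% in #e8.

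More genes passed the detection rule downward than upward. *Rspo3*, which encodes the Wnt amplifier R-spondin 3 (chromosome 10, 29453106 to 29535867), came first of 33 such lower genes, with 24.3 and 18.3 CPM against a mean of 681.0 and 501.2 CPM. That mean came from #e6, at 1964 and 1456 CPM, while #e3 was at 50.8 and 12.9 CPM and #e8 at 28.1 and 34.8 CPM. *Cdh13* (T-cadherin), *Thbd* (thrombomodulin) and *Prelp* (a leucine-rich matrix protein) followed, with ratios of -2.58 and -1.92, -1.87 and -2.86, and -1.74 and -2.87. *Timm17a*, *Exoc8*, *Tmem176b*, *Sox7* and *Acer3* were also among the first 10, with ratios between -1.42 and -2.21. *Sox7* encodes an endothelial transcription factor.

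**Figure D2:**
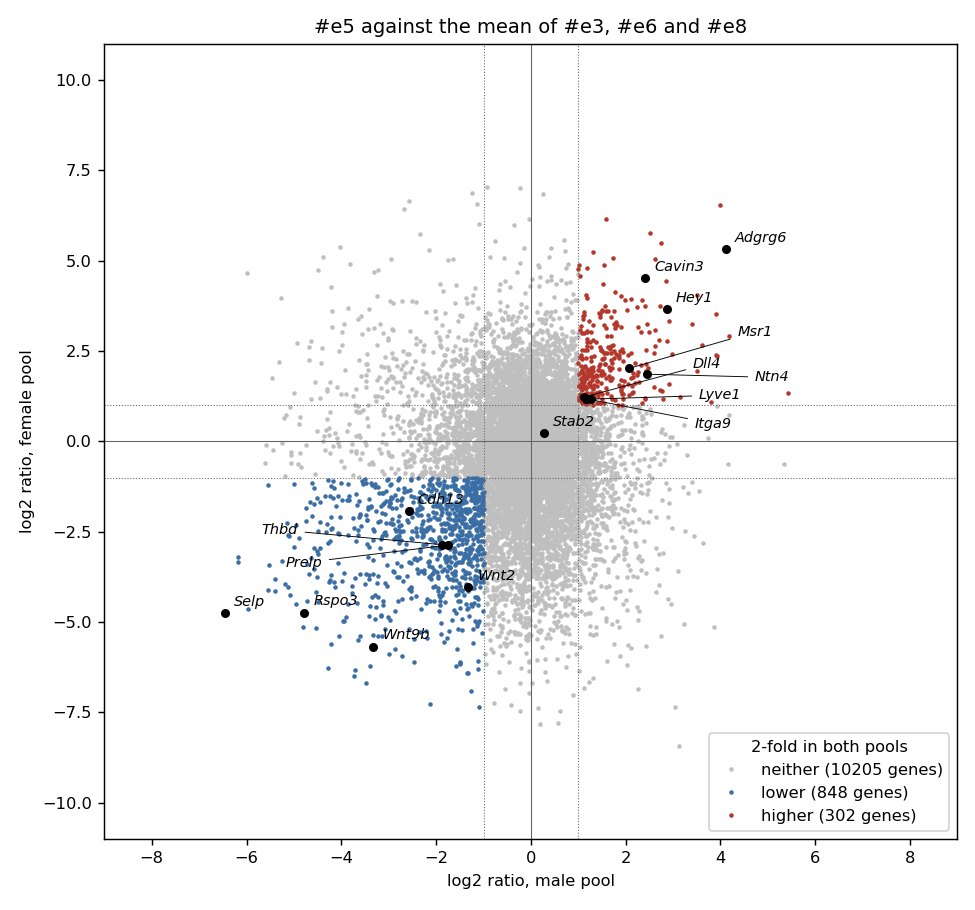
Log2 ratio of #e5 over the mean of #e3, #e6 and #e8 for 11355 genes, male pool on the x axis and female pool on the y axis, with dotted lines at 2-fold. Red points are the 302 higher and blue points the 848 lower genes, and black points mark named genes; points far from the diagonal differ between the pools.

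Several of these calls rested on #e6, whose *Rspo3* and *Wnt2* levels were near those of the central vein clusters. Against #e3 and #e8 alone, 403 genes were higher (3.55%) and 644 lower (5.67%). *Lyve1*, *Dll4*, *Itga9* and *Cmah* were then no longer called, with ratios of 0.71 and 0.59, 0.55 and 0.68, 0.70 and 0.83, and 1.16 and 0.98. *Msr1* (1.49 and 1.44) and *Ntn4* (2.15 and 1.55) remained higher, and *Cdh13* (-1.11 and -1.01) and *Thbd* (-1.04 and -1.51) remained lower. Of the other genes of the lists below that were lower than the 3 clusters, *Vwf* turned to higher without #e6 (1.74 and 1.88), and *Bmp4* (0.63 and 0.35) and *Lrg1* (0.18 and 0.95) turned sign without a call. *Edn1*, *Plvap* and *Pdgfd* turned sign in 1 pool. A stricter reading asks for the highest or lowest of the 4 sinusoidal clusters in both pools, which held for 816 genes (7.19%) and 476 genes (4.19%).

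Of the 14 genes known to be higher towards the portal side of the sinusoid, 3 were higher in #e5 than in the other sinusoidal clusters and none was lower, beside 2.66% and 7.47% of all genes considered. Here and for every list that follows, a count of few members is to be read against these shares, and against 7.12% higher and 11.7% lower in the comparison with the veins. The list's median ratio was 0.76 and 1.30, and #e5 was the highest of the 4 for 5 genes (*Efnb2*, *Msr1*, *Ntn4*, *Cd36* and *Ly6a*), beside 7.19% of all genes, and the lowest for none. *Ntn4*, which encodes the secreted netrin-4 (chromosome 10, 93641049 to 93745972), was at 95.7 and 96.9 CPM, against 32.0 and 23.1 CPM in #e3 and 10.3 and 42.7 CPM in #e8. Its level in #e5 was close to that of the portal vein cluster, 84.7 and 102.0 CPM. *Cd36*, a fatty acid and scavenger receptor, stood at 1347 and 1019 CPM, against 797.0 and 796.5 CPM in #e3 and 882.8 and 443.8 CPM in #e8, short of 2-fold to their mean with #e6 in the female pool (0.92) but not in the male pool (1.11).

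*Dll4*, the Notch ligand (chromosome 2, 119325784 to 119335666), was at 348.6 and 330.7 CPM in #e5. It was at 182.9 and 74.1 CPM in #e3, at 294.5 and 337.9 CPM in #e8 and at 579.9 and 490.0 CPM in #e2. The #e5 and #e8 levels thus overlapped. *Efnb2*, the ephrin ligand of arterial and portal endothelium, was at 117.5 and 62.8 CPM, against 61.9 and 43.5 CPM in #e3 and 5.62 and 50.3 CPM in #e8. *Adam23*, a membrane protein without protease activity, was at 1118 and 555.9 CPM; #e3 was above it in the female pool, with 633.4 CPM. *Gja5*, a connexin gene of arterial and portal endothelium, stood apart from the rest of the list, with 4.74 and 1.83 CPM in #e5 and 451.3 and 533.1 CPM in #e2.

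Of the 14 genes known to be higher towards the central vein, 9 were lower in #e5 than in the other sinusoidal clusters and none was higher. Their median ratio was -1.59 and -2.39. #e5 was the lowest of the 4 clusters for 6 of them (*Wnt2*, *Thbd*, *Cdh13*, *Plpp1*, *Dkk3* and *Tcim*). *Wnt2*, which encodes a Wnt ligand, was at 229.8 and 31.4 CPM, against 458.0 and 137.4 CPM in #e3, 293.6 and 391.9 CPM in #e8 and 966.2 and 1032 CPM in #e6. Cells with at least 100 CPM of *Wnt2* were 33 of 151 (21.9%) in #e5, 131 of 236 (55.5%) in #e3, 84 of 155 (54.2%) in #e8 and 103 of 112 (92.0%) in #e6. The 2 pools of #e5 lay far apart for this gene.

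*Kit*, a receptor tyrosine kinase of the pericentral and middle sinusoid, was at 433.1 and 347.8 CPM in #e5 and at 1214 and 1426 CPM in #e6 (ratios to all 3 clusters -1.19 and -1.13). #e3 was at 716.8 and 303.3 CPM, so the female pool of #e3 was below #e5. At 100 CPM or more, *Kit* was found in 54 of 151 #e5 cells (35.8%), and 20 cells had both *Kit* and *Lyve1*. *Thbd* was at 110.5 and 65.8 CPM in #e5 and at 175.0 CPM or more in #e3 and #e8 of both pools. *Wnt9b* was at 17.6 and 2.29 CPM, close to its 19.1 and 2.15 CPM in #e3 but below #e8 in both pools. *Selp* (P-selectin) was at 3.70 and 8.25 CPM against 41.4 and 5.37 CPM in #e3. With #e6 left out, 4 of the 14 were lower (*Thbd*, *Cdh13*, *Lhx6* and *Dkk3*), and of the periportal list 2 were higher (*Msr1* and *Ntn4*).

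**Figure D3:**
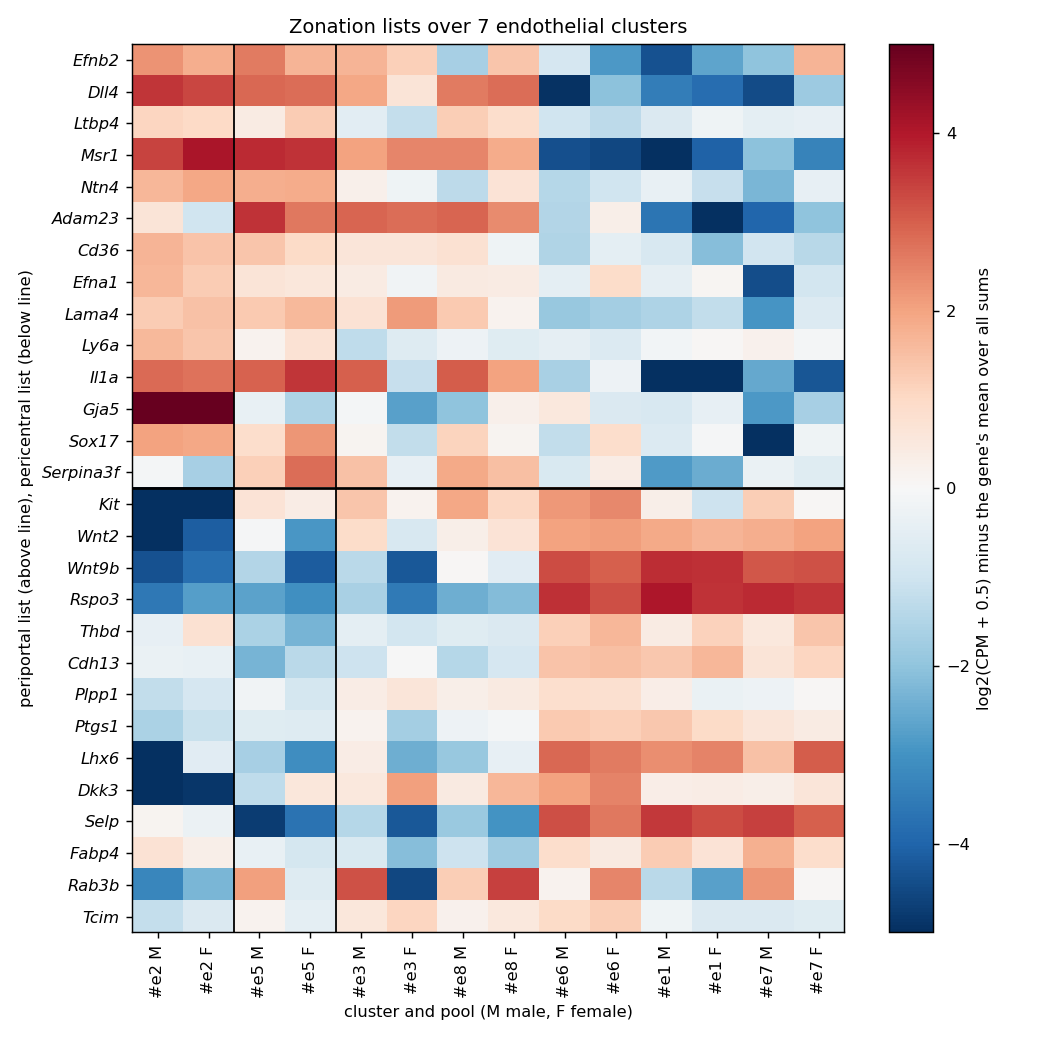
Levels of the 14 periportal (top) and 14 pericentral (bottom) genes in 7 clusters and both pools, as log2(CPM + 0.5) minus the gene's mean over the 14 sums, with colours limited to 5 either way. The #e5 columns are red or pale for most periportal genes, as in #e2, with *Gja5* as an exception, and blue or pale for most pericentral genes, while #e6, #e1 and #e7 are mostly blue above the line and red below it.

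#e5 lay between the portal vein cluster and #e3 and #e8 for part of the portal vein genes. A level below #e2 and above #e3 and #e8 in both pools was found for 213 of all genes considered (1.88%) and for 4 of the 9 portal vein genes, *Adgrg6*, *Jag1*, *Cd34* and *Ly6a*. Part of the vein lists follows what the study described in these same cells, so their direction is not independent evidence. The reverse order was found for 121 genes (1.07%). For each of the 4 portal vein genes named, a central vein cluster also stood above #e5. This was #e7 in the male pool for *Adgrg6* and *Ly6a*, #e7 in both pools for *Cd34* and #e1 in both pools for *Jag1*. *Adgrg6*, an adhesion G protein-coupled receptor, was at 48.7 and 74.5 CPM, against 364.3 and 444.7 CPM in #e2 and at most 3.88 CPM in the other sinusoidal clusters. Its ratios to those were 4.12 and 5.32, but few cells carried it: a read was found in 13 of 120 male (10.8%) and 10 of 31 female (32.3%) #e5 cells, against 73.5% and 73.3% of #e2 cells, and in 28.2% of female #e6 cells. On plate 318s, with 38 #e5 cells, *Adgrg6* was at 0 in #e5 and at 4.35 CPM in the other sinusoidal cells, and on the other 5 plates its ratio was above 0. Both *Cd34* and *Angpt2* lost their higher level in the #e6c cells of #e5 described further on, with mean ratios of -0.10 and -1.08. *Ly6a* was at 748.1 and 1103 CPM, against 2045 and 1772 CPM in #e2 and 279.3 and 428.3 CPM in #e3. *Cd34* was at 49.6 and 39.2 CPM, against 385.3 and 876.3 CPM in #e2 (ratios to the sinusoidal clusters 1.21 and 1.05), and on plate 318s it was at 3.46 CPM against 29.3 CPM in the other sinusoidal cells. A *Cd34* read was found in 51.6% of female #e5 cells and 57.7% of female #e6 cells.

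Compared with the vein clusters #e1, #e2 and #e7, 808 genes were higher in #e5 (7.12%) and 1331 lower (11.7%). With TMM scaling of the sums these became 592 and 1692, since that scaling moved the median of all genes by -0.23 and -0.21, so the split between higher and lower depends on it. The median over all genes as reported was -0.05 and -0.36. In this comparison 13 of the 14 pan-sinusoidal genes were higher, with median ratios of 1.90 and 1.80. They included *Stab1* and *Stab2*, the lectin genes *Clec4g* and *Clec1b*, the Fc receptor *Fcgr2b*, the atypical chemokine receptor *Gpr182* and the VEGF receptors *Kdr* and *Flt4*. The exception was *Gata4*, a transcription factor of sinusoidal endothelium, with 352.4 and 294.9 CPM in #e5 and 710.1 and 736.3 CPM in #e1. None of the 14 was higher or lower than in the other sinusoidal clusters. The study used *Bmp2* to annotate its sinusoidal clusters and listed *Stab2* as enriched there, in these same cells. The higher level of this list than in the veins is therefore not independent evidence.

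Of the genes detected in at least 50% of the cells, 158 were higher than in the veins. *Adam23* came first (ratios 4.43 and 4.58), followed by *Stab2* (4.03 and 4.18), *Lyve1* (2.96 and 3.44), *Gatm*, *Aass*, *Mertk*, *Dnase1l3*, *Bmp2*, *Zbtb39* and *Maf*. *Dnase1l3*, a secreted endonuclease, stood at 5218 and 3748 CPM. *Bmp2*, a ligand of sinusoidal endothelium in iron signalling to hepatocytes, stood at 916.5 and 588.7 CPM against 130.5 and 111.5 CPM in #e1. *Maf*, a transcription factor of sinusoidal identity, stood at 1136 and 797.7 CPM.

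Of 121 lower genes with such detection, the first 10 were *Bmp4*, *Cd200*, *Edn1*, *Prss23os*, *Prss23*, *Fmo2*, *Selp*, *Fbln2*, *Vwf* and *Gpm6a*. *Vwf* (von Willebrand factor) was at 20.2 and 26.4 CPM in #e5 and at 811.8 and 1277 CPM in #e2. *Edn1* (endothelin-1) was at 1.17 and 3.67 CPM and at 433.3 and 443.5 CPM in #e2. *Prss23os* is an opposite-strand transcript of *Prss23*, and the counting is not stated to use strand, so reads of this pair cannot be told apart. Of the central vein genes, 7 of 7 were lower than in the veins and 6 lower than in the sinusoidal clusters. Of the 7 genes of both large veins, 6 and 3 were lower. Against #e3 and #e8 alone, 0 genes of these 2 lists were lower and *Vwf* was higher, so their lower calls among the sinusoidal clusters rested on #e6. Of the 9 portal vein genes, 7 were lower than in the veins and 2 (*Adgrg6* and *Cd34*) higher than in the sinusoidal clusters, *Adgrg6* also without #e6. In both comparisons alike, 119 genes were higher and 537 lower.

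Most receptors of clearance did not reach 2-fold between #e5 and the other sinusoidal clusters. Of 17 scavenger and lectin receptors, *Lyve1* and *Msr1* were higher than in #e3, #e6 and #e8, and 8 were higher than in the veins. None was lower in either comparison. Against #e3 and #e8 alone, *Msr1* was higher and *Lrp1* and *Cd14* were lower. Of 6 hyaluronan genes, *Lyve1* was higher than in the sinusoidal clusters, *Lyve1* and *Stab2* were higher than in the veins, and the synthase *Has3* was lower than in the veins. Of 22 genes of clathrin-coated pits and early endosomes, none was higher or lower in either comparison. Of 29 lysosomal genes, the proteases *Ctsl* and *Lgmn* were higher and *Ctsh* and *Cd63* lower than in the veins, while *Ctsc*, *Ctsh* and *Laptm5* were lower than in the sinusoidal clusters. The endosomal and lysosomal counts were near or below the shares over all genes. *Ctsc* and *Laptm5* are strong macrophage genes, the mean ratio of *Ctsc* turned to 1.10 without #e8, and #e8 was the cluster with most of both, *Laptm5* for example at 77.0 and 135.8 CPM against 9.78 and 6.19 CPM in #e5.

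Among 13 Notch and ephrin genes, *Dll4* and the Notch targets *Hey1* and *Nrarp* were higher than in the sinusoidal clusters, and none was lower. *Hey1* had ratios of 2.87 and 3.66, with 32.1 CPM in female #e5, at most 5.91 CPM in #e3, #e6 and #e8, and 113.9 and 95.8 CPM in #e2. Its reads came from 8 of 120 male (6.67%) and 8 of 31 female (25.8%) #e5 cells. On the male plates *Hey1* in #e5 was at 125.8 CPM on 1278s, which has 7 #e5 cells, but at 0 on 318s and 704s and under 1 CPM on 319s, so the male ratio rests on a few cells. *Nrarp* was at 102.4 and 169.8 CPM, against 49.5 and 1.61 CPM in #e3 and 35.1 and 48.4 CPM in #e8. Against the veins, the receptor *Notch4* was higher and the ligands *Dll1* and *Jag1* lower. Among 11 VEGF and angiopoietin genes, *Angpt2* was higher than in the sinusoidal clusters, and *Kdr*, *Flt4*, *Nrp2* and *Angpt2* were higher than in the veins.

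Of 17 signals to other liver cells, 3 were higher and 6 lower than in the sinusoidal clusters. Stem cell factor *Kitl*, the ligand of KIT, was at 119.5 and 143.2 CPM, against 79.9 and 1.07 CPM in #e3, 63.5 and 22.5 CPM in #e8 and 222.0 and 226.3 CPM in #e2. It was not 2-fold above #e3 and #e8 alone in male cells, and a read was found in 38.4% of #e5, 38.6% of #e3 and 38.4% of #e6 cells. *Cxcl12* was at 13.4 and 24.1 CPM and at most 5.35 CPM in the other sinusoidal clusters. Its female level rests on 3 of 31 cells with a read (9.68%), its share in male cells was alike in #e5 (47.5%) and #e6 (47.1%), and its ratio was above 0 on 3 of 6 plates and below 0 on the other 3. *Angpt2*, read in 19.2% and 22.6% of #e5 cells, was at 44.2 and 44.0 CPM, with #e3 at 46.4 CPM in male cells and at 0 in the sum of its 6 female cells. The 6 lower signals were *Bmp4*, *Wnt2*, *Wnt9b*, *Rspo3*, *Pdgfd* and *Dkk3*, of which only *Dkk3* was also lower than in #e3 and #e8 alone. Against the veins, *Bmp2*, *Bmp6*, *Hgf*, *Angpt2*, *Inhbb* and *Csf1* were higher and 7 were lower.

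Of 28 endothelial transcription factors, *Nr2f1* and *Mecom* were higher and *Sox7* and *Nfatc1* lower than in the sinusoidal clusters, the lower count being near the share over all genes. Against #e3 and #e8 alone, *Sox7* and *Nfatc1* were still lower and no factor was higher. *Mecom* was at 115.5 and 212.6 CPM in #e5 and at 367.5 and 392.6 CPM in #e2, but #e8 was above #e5 in the male pool, with 146.6 CPM. Against the veins, *Maf*, *Meis2*, *Ets1*, *Nr2f1* and *Irf8* were among the higher genes and *Hhex* and *Foxp1* lower. Of 15 adhesion and chemokine genes, *Cxcl12* was higher and *Vcam1*, *Sele*, *Selp*, *Cxcl10* and *Ackr3* were lower than in the sinusoidal clusters, of which *Cxcl12* was also higher and *Sele* and *Cxcl10* also lower than in #e3 and #e8 alone. *Cxcl10*, an interferon-induced chemokine, was at 78.9 and 41.5 CPM against 616.3 and 808.3 CPM in #e3. Against the veins, 2 of the 15 were higher (*Cd274* and *Cxcl9*) and 7 lower.

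*Plvap*, the diaphragm protein of fenestrae, was at 504.2 and 292.6 CPM in #e5 and at 2087 and 1476 CPM in #e6 (ratios -1.17 and -1.18), but #e3 was at 479.4 and 107.9 CPM, below #e5. Of 8 caveolar and fenestral genes, *Cavin3* was higher, at 9.16 and 39.0 CPM against at most 3.19 CPM in the other sinusoidal clusters, and 5 were lower than in the veins. Of 13 junction genes, *Gja1* and *Cdh13* were lower than in the sinusoidal clusters, and 4 were lower and *Cldn5* higher than in the veins. Of 16 basement membrane and elastic fibre genes, none differed from the sinusoidal clusters by the rule, *Col4a1*, *Col4a2* and *Lama4* were higher than in the veins and *Sparcl1*, *Fbln5* and *Eln* lower. Of 12 genes of nitric oxide and endothelin signalling, *Gucy1b1* was higher and *Edn1*, by the level of #e6, lower than in the sinusoidal clusters, and 7 were lower and *Adm* higher than in the veins. Of 10 coagulation genes, *Vwf* and *Thbd* were lower than in the sinusoidal clusters, *Vwf* only with #e6 among them, and 5 were lower than in the veins. Of 10 lipid genes, the nuclear receptor *Nr1h3* was lower than in the sinusoidal clusters, and *Gpihbp1* was higher and 3 were lower than in the veins.

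Of 13 antigen presentation genes, *Cd40*, a receptor of T cell help, was lower than in the sinusoidal clusters and 3 were lower than in the veins. The list's median ratio to the sinusoidal clusters was -0.52 and -2.33. Its summed level was nonetheless 7099 and 7332 CPM in #e5, against 6000 and 5977 CPM in #e3. #e6 was at 6943 and 6941 CPM and #e8 at 6303 and 8673 CPM. *B2m* was highest in #e5 among the sinusoidal clusters in both pools. Of 17 interferon-stimulated genes, *Stat2* was higher and *Ifit1* and *Ifi47* lower than in the sinusoidal clusters, while *Ifit2* and *Stat2* were higher and *Ifit1* lower than in the veins. None of 7 cell cycle genes was higher or lower. Of 18 immediate early genes, which are known to rise during tissue dissociation, *Fosb*, *Atf3*, *Ier3* and *Myc* were lower than in the sinusoidal clusters, and *Fosb* and *Atf3* were lower than in the veins. The list's median ratio to the sinusoidal clusters was -1.95 and -0.36. *Fos* stood at 240.2 CPM in male #e5 against 1714 CPM in male #e3 and 1560 CPM in male #e8, and at 308.9 CPM in female #e5 against 254.4 and 815.0 CPM. The part of this difference in the other ratios was not tested.

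Of 10 Kupffer cell genes, 5 were lower than in the sinusoidal clusters (*Clec4f*, *Vsig4*, *Cd5l*, *Adgre1* and *C1qa*) and none was higher. These calls rested on #e8: without it the mean ratios turned to 0.97, 1.76, 0.90, 1.38 and 0.44. The summed level of all 12 listed Kupffer genes was 211.9 and 240.8 CPM in #e5, 1386 and 2022 CPM in #e8 and 3.17 to 506.3 CPM in #e7. It was 18.1 to 156.6 CPM in #e1, #e2, #e3 and #e6. *Msr1* is a macrophage gene as well, at 503.8 and 495.1 CPM in the Kupffer cells of the series, below its level in #e5. *Clec4f*, a defining Kupffer gene, was at 18.2 and 31.4 CPM in #e5, with a read in 46.7% of male cells, against 12.6% of male #e3 cells, and in 1 of 31 female cells. The part of Kupffer cell RNA in the *Msr1* level was not tested. Of 11 hepatocyte genes, *Apoa1* was higher than in the sinusoidal clusters, at 103.2 and 36.0 CPM against means of 50.6 and 12.1 CPM. The list summed to 570.7 and 449.6 CPM in #e5 and to 146.4 to 671.6 CPM in the other 6 clusters, with *Alb* at 200.0 and 248.9 CPM in #e5.

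Of 3 stellate genes that passed the level filter, *Ecm1* was lower than in the veins, and the list summed to 218.9 and 274.7 CPM. Of 2 platelet and erythroid genes, *Itga2b* was lower than in the veins, and the list summed to 68.4 and 4.12 CPM. The 1 lymphatic and 1 biliary gene that passed were neither higher nor lower, and no immune cell gene passed. The lymphatic list summed to 12.2 and 6.42 CPM in #e5 and to 6357 and 6094 CPM in #e4. The biliary list summed to 43.6 and 9.62 CPM and the immune list to 9.41 and 4.58 CPM.

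Outside the endothelium, no other population of the series reached the lower of the 2 pool levels of #e5 for *Lyve1*, *Stab2*, *Mrc1*, *Msr1*, *Dll4*, *Ntn4*, *Itga9*, *Adam23* or *Kit*, among 29 populations and pools. *Rspo3* was above it in 13 of them, with 614.8 CPM in male hepatic stellate cells.

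#e5 was above each of the other 6 clusters in both pools for 334 genes (2.94%) and below each for 158 (1.39%). The first 10 of the former were *Steap2*, *Ifitm1*, *Hoxb4*, *RP23.333I5.7*, *Mdfi*, *Alkbh2*, *Usp20*, *Mlf1*, *Noxo1* and *Agt*. They were found in few cells, with a read in 4.17 to 31.7% of male and 3.23 to 29.0% of female #e5 cells. *Steap2* and *Noxo1* had a read in 3.23% of female cells. *Ifitm1* was at 63.6 and 82.7 CPM, but on plate 318s it was at 11.6 CPM against 17.5 CPM in the other sinusoidal cells, and on plate 845s at 0.594 against 5.93 CPM. *Hoxb4*, a homeobox gene, was at 33.0 and 24.1 CPM and at most 8.62 CPM in the other 6 clusters, but on plate 061s, with 23 of the 31 female #e5 cells, it was at 1.81 CPM against 2.77 CPM in the other sinusoidal cells. The first 10 of the latter were *Itga3*, *Itgb7*, *Polr3e*, *Prps1l3*, *Timp2*, *Rprd1a*, *Mcts2*, *Txnrd3*, *Ackr3* and *Pepd*. *Itga3*, a laminin-binding integrin subunit, was at 0.291 and 0.458 CPM, with means of 11.7 and 11.5 CPM in the other sinusoidal clusters. *Timp2*, an inhibitor of metalloproteinases, was at 3.54 and 1.37 CPM against 34.6 and 40.0 CPM.

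#e5 cells came from 14 of the plates, 11 male and 3 female, with 49 cells on plate 319s, 38 on 318s, 23 on 061s (female) and 7 or fewer on each of the rest. On 6 plates, #e5 could be set against at least 5 cells of #e3, #e6 and #e8 of the same plate. These cells were summed together whatever their cluster, so the part of #e6 among them can differ between plates. No ratio to #e3 and #e8 alone was taken within plates. *Msr1*, *Itga9*, *Ntn4* and *Dll4* had a log2 ratio above 0 on 6 of 6 plates. The highest value of each came from plate 704s, whose 7 comparator cells had next to no reads of these genes (*Msr1* 2.87 CPM, *Itga9* 1.67 CPM, the others 0). On the other 5 plates *Msr1* ranged from 1.34 to 5.44, *Itga9* from 0.59 to 1.48, *Ntn4* from 0.90 to 4.99 and *Dll4* from 0.14 to 2.37. *Mecom*, *Kitl*, *Ltbp4*, *Lama4*, *Cd36*, *Adam23* and *Ly6a* were above 0 on 6 of 6 plates as well.

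*Lyve1* was above 0 on 4 of 6 plates and ranged from -1.47 to 4.34. On plate 318s it was at 409.3 CPM in #e5 and 438.5 CPM in the other sinusoidal cells, and on 1278s at 191.9 and 533.0 CPM. On 319s it was at 1080 and 678.2 CPM, and without that plate its mean ratio to #e3, #e6 and #e8 over the pools fell to 0.88 from 1.21. *Kit*, *Wnt2*, *Cdh13*, *Plpp1*, *Ptgs1*, *Prelp*, *Sox7* and *Tmem176b* were below 0 on 6 of 6 plates. *Thbd* was below 0 on 5, and *Rspo3* on 5 with the remaining plate at 0. Against vein cells of the same plates, *Stab2*, *Lyve1*, *Mrc1*, *Msr1*, *Adam23*, *Itga9* and *Kit* were above 0 on 6 of 6. In the pool sums, #e7 was above #e5 for *Kit* in male cells, and #e2 for *Msr1* in female cells.

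ERCC spike-in RNA had been added to the wells, so gene counts per spike-in count follow the RNA per cell as far as the wells received equal amounts. #e5 cells had a median of 29.1 and 31.9 gene counts per spike-in count, against 47.0 to 73.6 in #e1, #e3, #e6 and #e8 and 16.3 and 21.2 in #e7. Male #e2 cells, at 32.4, were close to #e5, and female #e2 cells were at 53.5. Within plates, #e5 was below the other sinusoidal cells on 6 of 6 plates, at 0.250 to 0.799 of their median (31.8 against 47.1 on 318s). Against vein cells it was below on 5 of 6 plates (0.517 to 0.900) and above on 1278s (1.47). Genes detected per cell were 3777 and 3828, against 4610 and 4771 in #e3 and 4202 and 4268 in #e6, whereas male #e8 (3518), male #e2 (3418) and #e7 (2934 and 2710) were below #e5. On plate 845s #e5 was above the other sinusoidal cells (4377 against 4285). Mitochondrial counts made up 2.07 and 2.28%, against 1.34 and 1.84% in #e3. The part of RNA amount in the ratios was not tested.

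**Figure D4:**
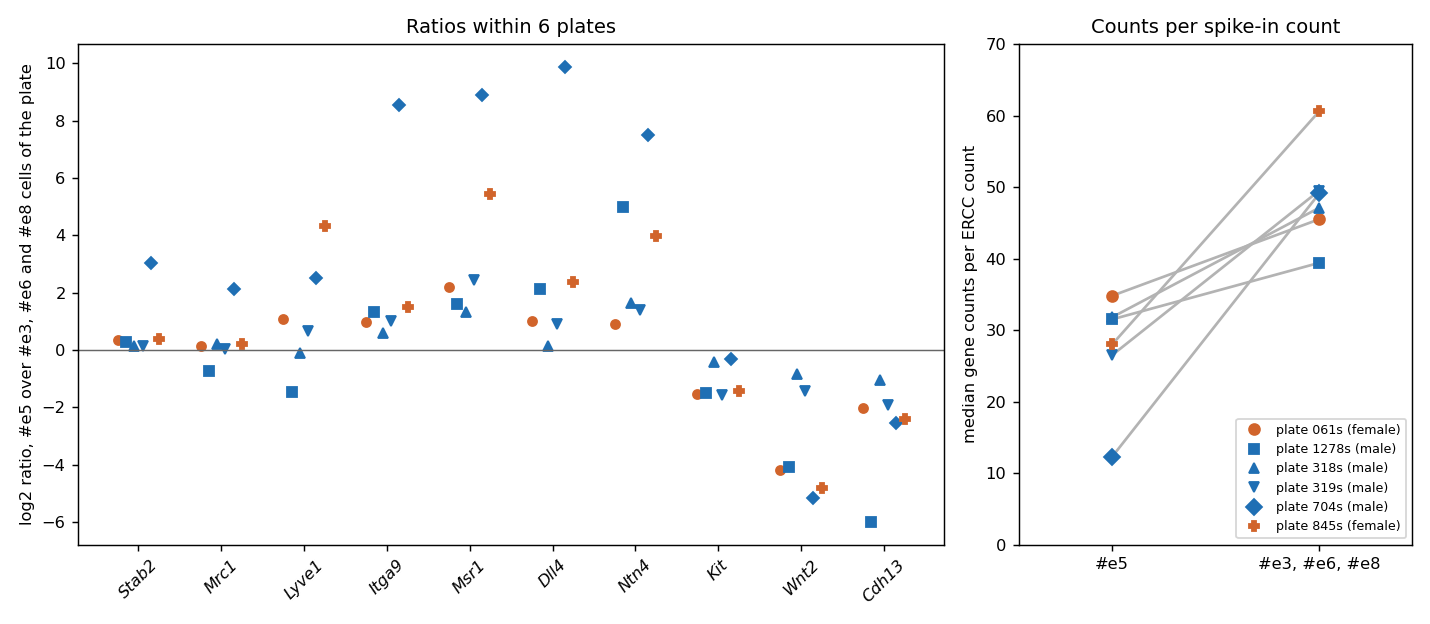
Left, log2 ratio of #e5 over the #e3, #e6 and #e8 cells of the same plate for 10 genes, a point per plate. Right, median gene counts per ERCC count of #e5 and of those cells, joined per plate. *Msr1*, *Dll4*, *Ntn4* and *Itga9* lie above 0 on all 6 plates and *Kit*, *Wnt2* and *Cdh13* below, *Lyve1* lies on both sides, plate 704s gives the highest values of *Msr1*, *Dll4*, *Ntn4* and *Itga9*, and all 6 lines on the right run upward.

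The study's second, finer clustering split #e5 in a pair of groups: 102 cells in #e6c (87 male, 15 female), 45 in #e8c (29 male, 16 female) and 4 in others. The split followed the gamma protocadherin genes, cell adhesion genes that share their last exons, a pattern that was noticed in these values and not looked for in advance. All 22 listed *Pcdhg* genes had counts within 5% of *Pcdhgc3* in most of the 103 #e5 cells with a *Pcdhgc3* read. Their reads can therefore not be told apart, and the 22 are 1 measurement. *Pcdhgc3* had a median of 1118 CPM per cell in the #e8c cells and 3.96 CPM in the #e6c cells.

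Added over the 22 *Pcdhg* genes, the counts came to a median of 2.46% of the listed total (0.975 to 5.53%) in #e8c cells and 0.0161% (0 to 1.58%) in #e6c cells. A read in a shared exon may be listed once for each of the 22 genes, so this sum ranks cells and is not a share of reads. It was over 1% in 44 of 45 and 2 of 102 cells. Cells over 1% made up 31.8% of #e5, 31.6% of #e8, 23.3% of #e3, 22.3% of #e6, 13.2% of #e1, 10.9% of #e2 and 10.7% of #e7, so such cells were present in all 7 clusters. In #e5 they were found on each of the 3 plates with most #e5 cells, in 15 of 49, 9 of 38 and 13 of 23 cells.

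The zonation genes were not level between these groups either. *Lyve1* was at 578.8 and 255.4 CPM in the #e6c cells and at 1009 and 684.6 CPM in the #e8c cells, and *Kit* was at 462.1 and 601.0 CPM and at 286.7 and 54.9 CPM. *Dll4* was at 308.9 and 104.2 CPM and at 441.4 and 592.7 CPM, whereas *Msr1* was higher in #e6c cells of the male pool (743.5 against 492.4 CPM) and in #e8c cells of the female pool (825.5 against 403.7 CPM). With the #e6c cells alone, the mean ratio of *Lyve1* to #e3, #e6 and #e8 was 0.66.

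**Figure D5:**
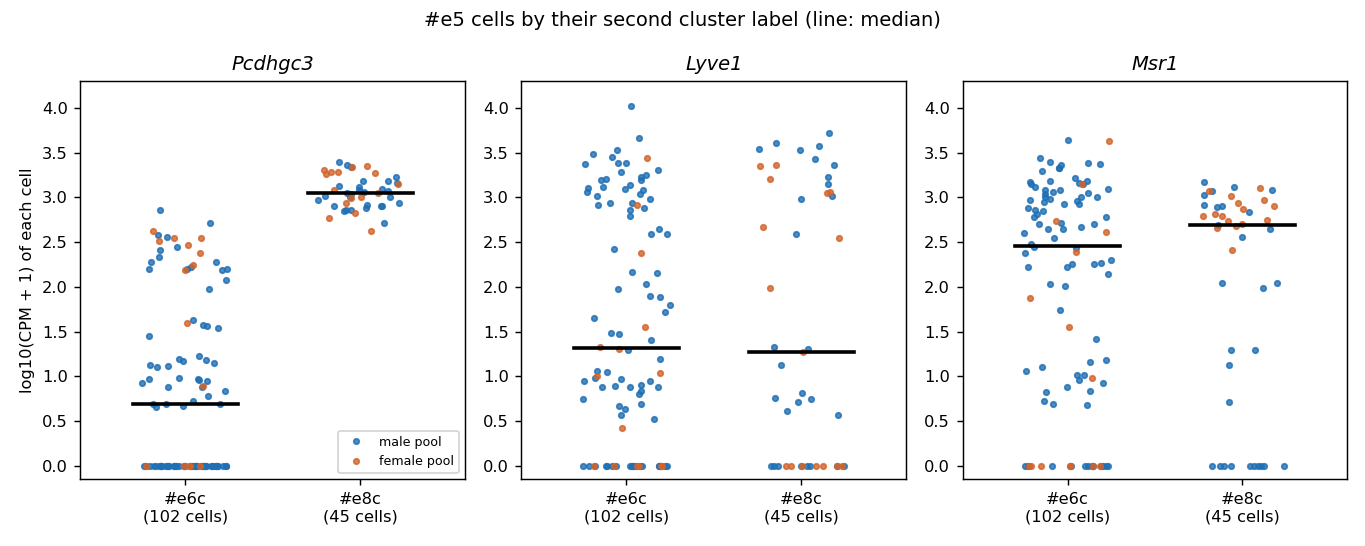
*Pcdhgc3*, *Lyve1* and *Msr1* in each #e5 cell as log10(CPM + 1), by second cluster label, blue for male and orange for female cells, with the median as a line. *Pcdhgc3* is high in the 45 #e8c cells and low in most of the 102 #e6c cells, with a few that overlap, while *Lyve1* and *Msr1* spread over the whole range in both.

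Between the sexes, the female sum of #e5 held 31 cells, so most differences rest on few cells: 3607 genes (31.8%) were at least 2-fold higher in male #e5 cells and 1939 (17.1%) in female #e5 cells. The median log2 ratio of male over female was 0.29. *Xist* was at 0.208 and 412.5 CPM, and the Y-linked *Ddx3y* and *Eif2s3y* were at 91.6 and 41.2 CPM in male and at 0 in female #e5 cells, as the labels say. The Y-linked *Kdm5d* (34.6 and 5.04 CPM) and *Uty* (39.0 and 4.35 CPM) were lower in the female sum but had a read in 29.0% and 25.8% of female cells, against 36.7% and 26.7% of male cells. The markers were alike or moderately apart, with male over female log2 ratios of 0.00 for *Stab2*, 0.12 for *Msr1*, 0.08 for *Dll4* and 0.62 for *Lyve1*.

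The male-high genes among those with a read in at least 50% of cells were led by *Serpina1e*, *Gsn*, *Magt1*, *Adamts1*, *Paip2*, *Alkbh5*, *Ift20* and *Dpm1*. *Serpina1e* had a read in 65.8% of male and 0 of 31 female cells, which allows a female share of up to 9.68%, and it was male-high in #e2 and #e3 too (116.6 and 0.0526 CPM, and 63.5 and 0 CPM). It is a hepatocyte gene with near-identical copies, and reads may be split among them. The female-high genes after *Xist* were *Peg12*, *Txnl4b*, *Gprc5c*, *Ubr1*, *Vangl1*, *Plin3* and *Agap3*. *Gprc5c*, an orphan receptor, was at 20.4 and 299.0 CPM in #e5 and at 129.0 and 124.0 CPM in #e2. Sex, plate and mouse cannot be told apart in these values.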

How the data were processed

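Libraries of single sorted liver cells were made in plates with the Smart-seq2 protocol, and reads were single and 50 bases long. The authors deposited raw counts per gene and cell without normalization, and had left out shallow cells, cells with a large mitochondrial or spike-in share, cells with very many genes as putative doublets, and cells with mixed transcriptomes. The submitters' processing notes name bcl2fastq, Bowtie, Bowtie2, featureCounts, Subread and Seurat and the builds GRCm38 and mm10, with no order. Clusters and annotation are the authors' (pagoda2 on these cells). No doublet caller was run here, and reads have no molecular identifiers.

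Counts without ERCC spike-ins were summed per cluster and pool (at least 5 cells) and scaled to 1000000. Ratios used 0.5 CPM and equal weight of comparator clusters within a pool, and a gene was called at 2-fold in both pools. The ratio and call steps were checked on simulated data. The scripts ran in Python 3.11.15 with pandas 2.3.3, scipy 1.17.1 and numpy 2.4.6, and in R 4.3.3 with edgeR 4.0.16 and DESeq2 1.42.0 for alternative scaling factors only. No test was run, because the clusters were made from the same transcriptomes. Shares have exact 95% binomial intervals, and where no cell was counted the limit given is 3 cells of the total.

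The cells and gene lists were chosen with earlier results of these data known. Named were members of the lists past 2-fold or of high level, up to 10 genes each way per comparison ranked by the smaller pool ratio (read in at least 50% of the cells of the higher side), up to 10 above or below all 6 clusters, and up to 8 per sex. Predicted, ribosomal and mitochondrial genes were not named. A few genes that met these rules are not reported here. Alternatives were TMM and DESeq2 scaling, a pseudocount of 5 CPM, other filters (none, 20 CPM), means over cells, cells thinned to 50000 counts, comparator cells summed together, sums of at least 10 cells, other folds (1.5 and 4), leaving out a plate, a pool or a cluster, values within plates, and the larger second-cluster group alone. Gene positions are those of RefSeq on GRCm38.p6.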

Additional observations from a re-analysis of the deposited data

Results flagged for a closer look

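Genes of the lists that passed 2-fold in opposite directions in the pools are given here as values. The difference between the pools was not tested, and 1 pool per sex cannot test it. Against #e3, #e6 and #e8, *Tap2* (peptide transporter of antigen presentation) had a log2 ratio of -1.40 (male) and 1.13 (female), and *Plat* (tissue plasminogen activator) had -1.16 and 1.22. *Spp1* (osteopontin, on the biliary list) had 3.63 and -2.81, and *Ppbp* (a platelet chemokine) had 1.28 and -2.91. Against #e1, #e2 and #e7, the immediate early gene *Dusp1* had -1.02 and 1.07, and *Dcn* (decorin, on the stellate list) had 1.70 and -2.59. *Dusp1* was at 700.1 and 1272 CPM in #e5, and the male vein clusters #e1 and #e2 were at 1975 and 1869 CPM. *Spp1*, *Ppbp* and *Plat* were under 50 CPM in #e5, where few cells carry most reads.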

How the results depend on the processing

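As reported, 302 genes were higher and 848 lower than in #e3, #e6 and #e8, and 808 and 1331 than in #e1, #e2 and #e7. With a pseudocount of 5 CPM the first pair was 172 and 461, without a filter 469 and 1334 (1378 higher than the veins), and with a mean of at least 20 CPM the counts were 128, 412, 486 and 700. Comparator cells summed together gave 195 higher than the sinusoidal clusters, values within plates gave 1356 lower, and the larger second-cluster group gave 1307 lower. At 1.5-fold the counts were 805, 1512, 1414 and 2119, and at 4-fold 40, 254, 185 and 578. A single pool, which needs no second to pass, gave 1088 to 2126, 1882 to 3692, 2011 to 2241 and 2250 to 4104. Leaving out #e6, #e8 or #e2 was chosen after seeing the data. Over 189 ratios of named or listed genes past 2-fold and 18 alternatives, 2949 of 2977 values kept the sign and 666 moved by more than 1 SD of the pools, and 24 values reversed a call, in 20 ratios. To #e3, #e6 and #e8, *Bmp4* (0.49), *Edn1* (0.21), *Lrg1* (0.57) and *Vwf* (1.81) reversed without #e6. *Adgre1* (1.38), *C1qa* (0.44), *Cd5l* (0.90), *Clec4f* (0.97), *Ctsc* (1.10) and *Vsig4* (1.76) did so without #e8. *Adgre1* (0.64), *Cd5l* (0.01), *Clec4f* (0.33) and *Vsig4* (0.36) did so within plates, and *Angpt2* (-1.08) and *Cd34* (-0.10) in the larger second-cluster group. To the veins, *Bmp6* (-0.23) reversed within plates, and *Adgrg6* (1.41), *Ednrb* (0.39), *Gja5* (0.24), *Gucy1a1* (0.25), *Gucy1b1* (0.51), *Plat* (1.92) and *Sdc1* (1.15) without #e2, which had the highest level of each among the vein clusters. The cause of the reversals within plates and in the larger second-cluster group was not tested. The *Lyve1* ratio to the sinusoidal clusters ranged from 0.65 to 1.79, *Msr1* from 1.46 to 2.92 and *Dll4* from 0.26 to 2.43. No replicate block was fitted, since no result comes from a test; #e5 and comparator cells were set against each other within the same pool and, as an alternative, within the same plate. The female sum of #e5 (31 cells) and of #e3 (6 cells) limits what low levels show.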
